A study of Mus musculus and Rattus norvegicus with 80 samples.

Results

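L1 transcript reads in the testis and the brain of the same 3 rats were compared locus by locus. The rats were males of the F344 strain, all 4.8 mo old, with no treatment given in the labels, and carried the animal numbers 967, 968 and 974. The 6 libraries, 3 from testis and 3 from brain, were chosen by the organ and the animal that the labels name, out of the 80 libraries of the series. The whole series measured L1 mRNA per locus in organs of male and female mice of several ages and in organs of these male rats. Each library holds polyadenylated RNA from the cytoplasm of a small, bluntly dissected piece of 1 organ of 1 animal, sequenced in pairs with the strand kept. The labels do not say which region of the brain or which cells of the testis a piece held, and the tables list L1 loci and no genes, so the organs could not be checked against marker genes. Liver and lung of the same rats (n = 3 each) stand beside some results as a description.

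L1 (LINE-1) elements are retrotransposons: a full-length copy is transcribed from a promoter in its own 5′ UTR, and the RNA encodes the proteins that copy it back into the genome. Most L1 copies in a rodent genome are truncated or mutated, and many lie in introns or near genes, where L1 sequence is carried passively in the transcripts of the host gene. Germ cells hold dedicated silencing of L1 through DNA methylation and small RNAs, while in brain L1 activity has been described in neural cells.

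The authors' list for the rat genome (rn6) held 4563 loci given as full-length L1, 2286 on the plus strand and 2277 on the minus strand. Of these, 4058 were counted over a window of exactly 6000 bp. The windows of 445 loci were shorter than 5.9 kb, the shortest being 18 bp, so not every window holds a full-length L1. An entry is named RAT_FL_ followed by the number used here, so that L53 is RAT_FL_L53. Of the 3859 names, 668 stood for more than 1 place, so a locus was identified by its name and its position. For every locus the tables gave the number of reads and the covered fraction, which is the part of the window that at least 1 read overlapped. Libraries of testis held 7110 to 8140 reads on these loci and libraries of brain 9909 to 13650, out of 16.9 M to 20.1 M and 18.8 M to 25.7 M mapped reads. The 2 mates of a pair were counted singly, since 91.5% to 95.5% of the loci with a read had an even number of them in each library. A count of 3 reads, used here as the floor, corresponds to 0.117 to 0.178 reads per M mapped reads (RPM) in these libraries. No read of any of the 6 libraries fell on 2965 loci (65.0%), and 1598 loci had at least 1.

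A single locus held most L1 reads in both organs. It was L53 at chr1:20114770-20120769 on the plus strand, whose name stands for 2 places. Its level was 296, 267 and 269.9 RPM in the testes of rats 967, 968 and 974 and 465, 559 and 446 RPM in the brains. All 3 brains lay above all 3 testes. L53 made up 69.2% ± 2.21 (SD, n = 3) of the L1 reads in testis and 88.0% ± 3.66 in brain. Its reads covered 0.123 to 0.151 of the window in testis and 0.123 in each brain. This was 736 to 903 bp of 6000 bp, so all of its reads fell on a small part of the window. The covered fraction does not say whether the covered bases adjoin. How much of the window unique alignments could reach was not tested. In edgeR's quasi-likelihood test with mapped reads as library size, the log2 fold change of L53 from brain to testis was −0.82 (SE 0.126, Benjamini-Hochberg adjusted p = 2.75e-06). This direction depends on the scaling: with TMM factors on the total of L1 reads the call was lost (adjusted p = 0.378), and with the default size factors of DESeq2 the log2 fold change was 0.11.

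The order of the organs in total L1 reads was set by L53. Over all loci, testes had 422, 378 and 405 RPM and brains 532, 608 and 527 RPM, so brains were higher in all 3 rats. The means were 402 ± 22.4 RPM in testis and 555 ± 45.4 RPM in brain (SD, n = 3), a difference of −0.47 on the log2 scale. The exact two-sided permutation test gave p = 0.1, which is the smallest that 3 against 3 libraries allow, and 0.15 after Benjamini-Hochberg adjustment over the 6 library-level measures tested. Without L53 the order turned round. The other loci together had 126, 111 and 135 RPM in the testes and 66.9, 48.9 and 80.5 RPM in the brains, a log2 difference of 0.95 in favour of testis (exact permutation p = 0.1, leaving out L53 was chosen after the data were seen). Without the 10 loci with most reads the log2 difference was 0.70. In bulk tissue, fewer cells of a type and less RNA per cell cannot be told apart, and this holds for each difference between the organs given here.

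**Figure D1:**
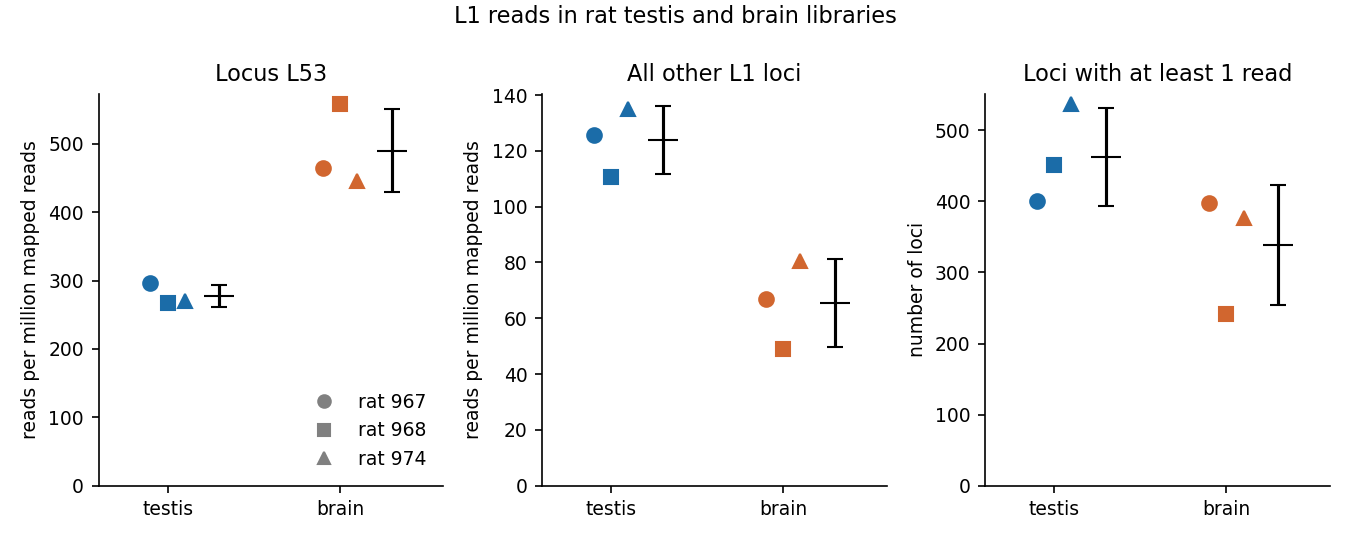
Reads per M mapped reads (RPM) on L53 (left), on all other L1 loci together (middle), and the number of loci with at least 1 read (right) in 3 testis and 3 brain libraries. Symbols mark the rat, and the bars show the mean and SD of 3 libraries. L53 is higher in every brain and the other loci together are higher in every testis, while the number of loci in the testis of rat 967 (400) is close to that in the brain of the same rat (398).

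Reads were found on more loci in testis than in brain, mostly through loci with very few reads. At least 1 read fell on 400, 451 and 537 loci in the testes and on 398, 242 and 376 loci in the brains of rats 967, 968 and 974. The lowest testis thus stood only 2 loci above the highest brain. These were the libraries of rat 967, the testis with the fewest mapped reads of the 6 (16.9 M) and the brain with the most (25.7 M). The means were 463 ± 69.2 and 339 ± 84.4 (SD, n = 3), with p = 0.1 in the exact permutation test. The difference of 124 loci was 75.7 without the brain of rat 968 and 81.5 without both libraries of that rat, and the exact permutation p was 0.4 without the testis of rat 974. With all libraries thinned to the smallest number of mapped reads it was 135 (exact permutation p = 0.1). Thinned to the smallest number of L1 reads, which include those of L53, it was 170 (exact permutation p = 0.1). Between 75.2% and 78.9% of these loci had exactly 2 reads in a library, which is 1 read pair. With more than 10 reads, 18, 17 and 20 loci remained in testis and 17, 11 and 18 in brain, and the groups overlapped (exact permutation p = 0.5). Within rats, testis had more such loci in all 3 (exact sign-flip permutation p = 0.25, the smallest that 3 rats allow), and the mean difference of 3 loci was 0.833 without the brain of rat 968. Thinned to the smallest number of mapped reads this difference was 4.15 (exact permutation p = 0.2), and thinned to that of L1 reads 6.96 (exact permutation p = 0.1). Loci with 10 reads or fewer made up 46.9% ± 2.04 of the reads outside L53 in testis and 55.0% ± 2.92 in brain.

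Most loci had reads in a single rat. Of the 1079 loci with a read in any testis, 242 (22.4%) had one in at least 2 testes and 67 (6.21%) in all 3. Of the 803 loci with a read in any brain, 167 (20.8%) had one in at least 2 brains and 46 (5.73%) in all 3. The organs shared 284 loci, 26.3% of those of testis and 35.4% of those of brain. With more than 10 reads, 13 of 28 loci in testis and 9 of 22 in brain passed in all 3 animals. Only L53, L3422 and L5280 had more than 10 reads in all 6 libraries. A set of 9 loci passed in all 3 testes and in no brain, and 4 loci passed in all 3 brains and in no testis.

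Across the 1598 loci with a read, 48 had all 3 testes above all 3 brains (3.00%), and 31 had all 3 brains above all 3 testes (1.94%). The edgeR test was run on the 21 loci with at least 10 reads in at least 3 of the 6 libraries. It called 18 of them (85.7%), 10 higher in testis (47.6%) and 8 higher in brain (38.1%). A further 3 loci, L3422, L6045 and L2295, were not called. Of the 21 loci, 9 had at least 10 reads in all 3 testes but not in all 3 brains, and 7 in all 3 brains but not in all 3 testes. At most of the loci the filter itself thus favoured a difference, though L2295, of the brain group, was not called. The counts of calls are therefore given as a description. The same holds for the adjusted p given below for single loci that had 10 reads in all 3 libraries of only 1 organ, which is no independent evidence of a difference. Of the called loci, 3 of those higher in testis (L4206, L4384 and L1126) and 5 of those higher in brain (L53, L517, L1019, L8036 and L5280) have names that stand for 2 places, and the values are those of the place given here. The median log2 fold change over the 21 loci was 0.30 with mapped reads as library size, 0.75 with TMM factors, 1.23 with the default of DESeq2 and −0.70 with the L1 reads outside L53 as library size. Of the called loci, 55.6% were higher in testis with mapped reads and 73.3% with the default of DESeq2 (11 higher in testis and 4 in brain).

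**Figure D2:**
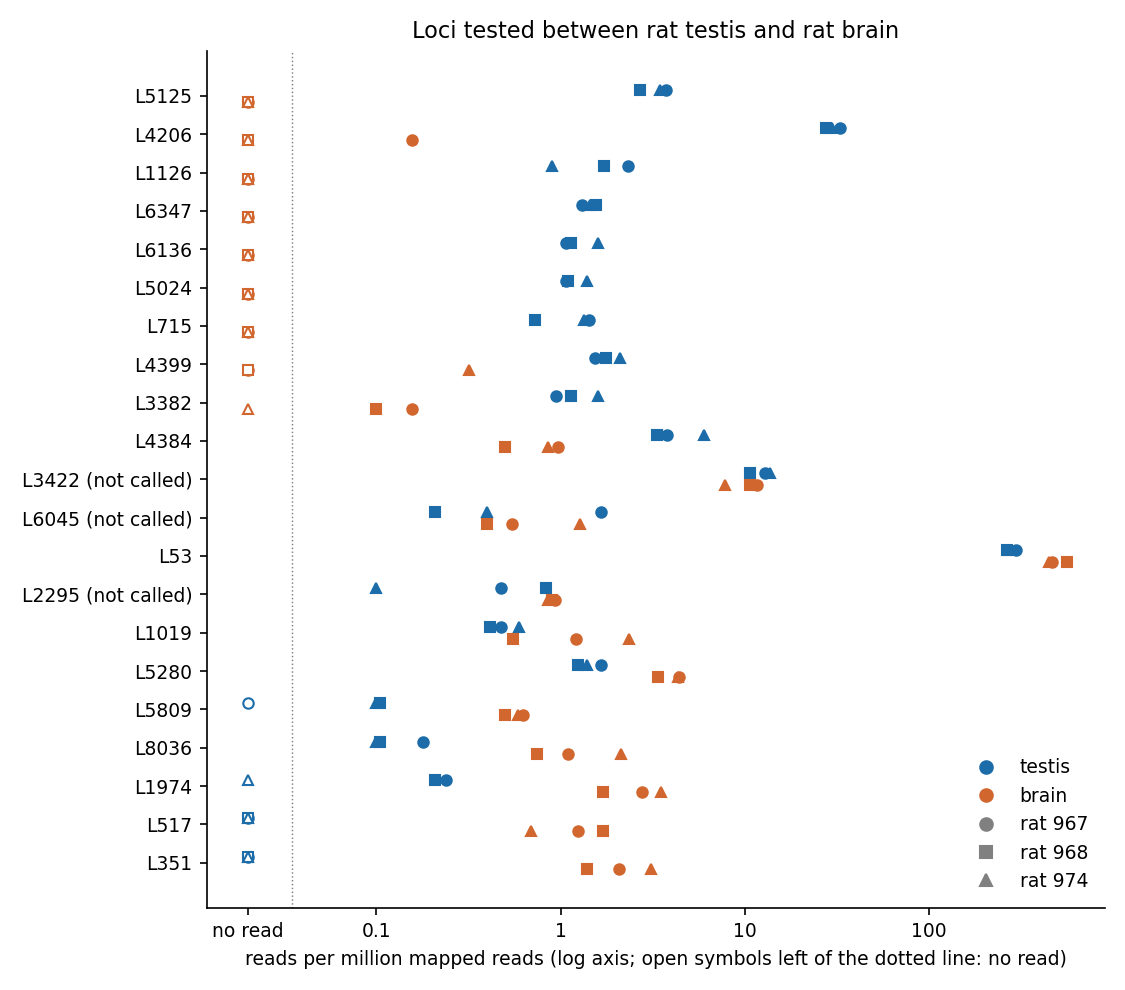
Reads per M mapped reads (RPM, log axis) of the 21 tested loci in 3 testis and 3 brain libraries, ordered by log2 fold change. Colour marks the organ and the symbol the rat, and open symbols left of the dotted line are libraries without a read. For 6 of the 10 loci called higher in testis no brain had a read, for 2 of the 8 called higher in brain no testis had one, and the order of L53 turns to 0.11 in favour of testis with the default scaling of DESeq2.

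L4206 at chr8:1927461-1933460 on the plus strand, whose name stands for 2 places, held the most reads in testis after L53. It had 556, 528 and 600 reads in the testes of rats 967, 968 and 974, and 4, 0 and 0 in the brains. Its mean level was 30.1 ± 2.77 RPM in testis and 0.0519 ± 0.0900 RPM in brain (SD, n = 3), and the log2 fold change was 8.80 (SE 0.469, adjusted p = 6.77e-14, edgeR). The ratio of the means, 579.5, rests on the 4 reads in the brain of rat 967. In all 3 testes these reads covered the same length, 644 to 645 bp of the window, and livers and lungs had 2 to 8 reads each.

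L5125 at chr11:20975239-20981238 on the plus strand differed from L4206 in how its window was filled. It had 63, 52 and 70 reads in the testes and none in any brain, liver or lung. Its level was 3.31 ± 0.539 RPM in testis, at least 23.3-fold higher than in brain against the floor of 3 reads per library (adjusted p = 3.04e-08, edgeR). The reads covered 0.526 to 0.543 of the window, 3154 to 3255 bp. L4384 at chr8:60622337-60628336 on the plus strand, with a name at 2 places, had the widest coverage of any locus in the testis of rat 974, at 0.707 of its window, while in the testes of rats 967 and 968 it was covered at 0.497 and 0.427, less than L5125. It had 64, 64 and 120 reads in the testes against 25, 10 and 16 in the brains, a log2 fold change of 2.48 (SE 0.447, adjusted p = 2.13e-05, edgeR). The organs did not overlap at L4384, but brain was not free of it, and lungs had 10, 4 and 18 reads and livers none.

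Among the loci called higher in testis, another 5 had reads in every testis and no read in any brain. L1126 at chr2:70404428-70410427 on the plus strand had 39, 33 and 18 reads in the testes and none in the other 9 rat libraries. Its reads covered 0.0872 to 0.145 of the window. L6347 at chr15:74094412-74100411 on the plus strand had 22, 30 and 29 reads in the testes, likewise with none in the other 9 libraries, over 0.232 to 0.333 of the window. Against the floor these levels were at least 11.6-fold and 10.1-fold higher than in brain (adjusted p = 7.28e-07 and 5.87e-07, edgeR).

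L6136 at chr15:292674-298673 on the plus strand had 18, 22 and 32 reads in the testes, at least 8.93-fold above brain, and 2 reads in 1 lung. L5024 at chr8:86747577-86753576 on the minus strand had 18, 21 and 28 reads, at least 8.34-fold above brain, with 2 reads in 1 liver and 4 in 1 lung. L715 at chr15:50312987-50318986 on the minus strand had 24, 14 and 27 reads, at least 8.21-fold above brain. The 3 loci passed the test with adjusted p of 8.45e-07, 8.96e-07 and 1.37e-06 (edgeR). Of them, L715 was shared with another organ, since the lungs of rats 967, 968 and 974 had 13, 4 and 20 reads on it.

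The last 2 loci called higher in testis had a few reads in brain. L4399 at chr8:74274119-74280118 on the plus strand had 26, 34 and 42 reads in the testes and 0, 0 and 6 in the brains, a log2 fold change of 4.15 (SE 0.743, adjusted p = 2.07e-05, edgeR). Without the brain of rat 974, which held all 6 brain reads, the fitted value was 8.21, without the brain of rat 967 it was 3.48, and no liver or lung had a read on L4399. L3382 at chr2:122174428-122180427 on the minus strand had 16, 22 and 32 reads against 4, 2 and 0, a log2 fold change of 3.67 (SE 0.667, adjusted p = 2.23e-05, edgeR). Without the brain of rat 967 the value of L3382 was 4.42, and without both libraries of rat 967 or 974 it was 4.58 or 2.95. The reads of L3382 stood on 236 to 263 bp in every testis, whereas those of L4399 covered 1676 to 1941 bp.

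Of the 8 loci called higher in brain, L351 and L517 had no read in any testis. L351 lies at chr1:116504137-116510136 on the minus strand and had 53, 28 and 58 reads in the brains of rats 967, 968 and 974. Livers and lungs had none either. Its level in brain was 2.18 ± 0.849 RPM (SD, n = 3), at least 13.5-fold above testis (adjusted p = 4.23e-07, edgeR), and its reads covered 0.261 to 0.541 of the window. L1212 at chr1:116467096-116473095, on the same strand and separated from it by 31.0 kb, was also read in brain alone, with 28, 2 and 28 reads. At both loci the brain of rat 968 had the fewest reads. Among the 46 loci with at least 10 reads in any of the 6 libraries, these were the only neighbours on a strand within 50 kb. L1212 did not reach the filter of the test and was chosen after its values were seen.

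L1974 at chr3:48183738-48189737 on the plus strand had the widest coverage of any locus in the brains of rats 967 and 974. It had 71, 34 and 66 reads in the brains and 4, 4 and 0 in the testes, a log2 fold change of −4.15 (SE 0.646, adjusted p = 3.18e-06, edgeR). The value was −3.54 without the testis of rat 974, and −4.76 or −3.31 without both libraries of rat 968 or 974. The reads covered 0.350 to 0.634 of the window in brain, and in the brain of rat 968 L3422 was covered more widely, at 0.490. L517 at chr1:155565263-155571262 on the plus strand, with a name at 2 places, had 32, 34 and 13 reads in the brains and none in the testes. This was at least 7.52-fold above testis (adjusted p = 2.12e-06, edgeR), and 1 liver had 2 reads.

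L8036 at chr13:109389714-109395149 on the minus strand had 28, 15 and 40 reads in the brains and 3, 2 and 2 in the testes, a log2 fold change of −3.33 (SE 0.641, adjusted p = 4.4e-05, edgeR) and −2.69 without both libraries of rat 974. L5280 at chr2:105001590-105007589 on the minus strand had 113, 68 and 82 reads in the brains and 28, 24 and 28 in the testes, a log2 fold change of −1.50 (SE 0.395, adjusted p = 1.21e-03). The organs did not overlap at either locus. The reads of L5280 stood on 112 to 290 bp of the window in testis and on 116 to 137 bp in brain, and livers and lungs also had 48 to 186 reads each. The call of L5280 was lost with the default size factors of DESeq2 (adjusted p = 0.183).

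The other two loci called higher in brain lost their call under several alternatives. L5809 at chr13:113880330-113886329 on the plus strand had 16, 10 and 11 reads in the brains and 0, 2 and 2 in the testes, a log2 fold change of −2.91 (SE 0.738, adjusted p = 8.91e-04, edgeR). Its adjusted p was 0.0614 with the rat as a block (log2 fold change −2.96), 0.116 with the default size factors of DESeq2 (−2.01) and 0.0512 without the filter, and the sign stayed the same in these. L1019 at chr2:39475954-39481953 on the plus strand had 31, 11 and 44 reads in the brains and 8, 8 and 12 in the testes, a log2 fold change of −1.44 (SE 0.546, adjusted p = 0.0176, edgeR). The organs overlapped at L1019 in RPM. The call was lost with 3 other scalings, which were the total of L1 reads with TMM factors (log2 fold change −0.86, adjusted p = 0.120), that total without factors (−1.01, 0.0862) and the default size factors of DESeq2 (−0.40, 0.592). It was lost without the filter (adjusted p = 0.110) too. It was also lost with the rat as a block (adjusted p = 0.118), without the brain of rat 974 (log2 fold change −0.84, adjusted p = 0.144), without the testis of rat 967 (0.0649) or 974 (0.0775) and without both libraries of rat 967 (0.0610) or 974 (0.0738). L1019 was tested but falls outside the rule for named loci and was named after its values were seen.

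The 3 tested loci that were not called included the third highest level in testis. L3422 at chr6:6180602-6182105 on the plus strand has a short window of 1504 bp. It had 218, 205 and 274 reads in the testes and 300, 215 and 147 in the brains, or 12.4 ± 1.55 and 10.1 ± 2.02 RPM (SD, n = 3). The log2 fold change was 0.30 (SE 0.257, adjusted p = 0.271, edgeR), with TMM factors it was 0.75 (adjusted p = 0.00759), and with the L1 reads outside L53 as library size it was −0.70. Per kb of window, the mean level of L3422 was 8.25 FPKM in testis and 6.70 FPKM in brain, against 46.3 and 81.7 FPKM for L53 and 5.02 and 0.00866 FPKM for L4206.

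L6045 at chr14:71943402-71949401 on the plus strand had 28, 4 and 8 reads in the testes and 14, 8 and 24 in the brains (adjusted p = 0.981, edgeR). Its libraries differed more within each organ than the organ means did, which were 0.756 ± 0.790 RPM in testis and 0.740 ± 0.470 in brain (SD, n = 3). L2295 at chr4:6018959-6024958 on the plus strand is on the testis list of the study, and its name stands for 2 places. It had 8, 16 and 2 reads in the testes and 24, 18 and 16 in the brains, a log2 fold change of −0.93 (SE 0.57, adjusted p = 0.127, edgeR). Every brain thus had a higher RPM than every testis at L2295, but the test did not call it. Without the testis of rat 968 the adjusted p was 0.0250.

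The covered fraction set the called loci apart from each other in both organs. At 3 of the 10 loci higher in testis (L4206, L1126 and L3382) and at 3 of the 8 higher in brain (L53, L5280 and L5809), the reads never covered 0.2 of the window in the organ with more reads. The covered fraction also depends on the number of reads. L5809 had only 10 to 16 reads per brain, over 653 to 918 bp, whereas L53 had 8394 to 11934 over 737 to 738 bp. At the loci named next, reads reached further. At L5125 and L4384 in testis and L1974 and L351 in brain, they covered at least 0.5 of it in at least 1 library. These 4 were the loci tested when the test was restricted to that fraction, and all 4 were called. Since each reached the fraction only in the organ with more reads, the restriction itself favoured that outcome and adds no support. Over all loci with more than 10 reads, the median covered fraction was 0.185, 0.151 and 0.228 in the testes and 0.212, 0.168 and 0.206 in the brains. The organs overlapped (exact permutation p = 0.8), and the sign of the difference of −0.00733 changed when single libraries were left out.

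**Figure D3:**
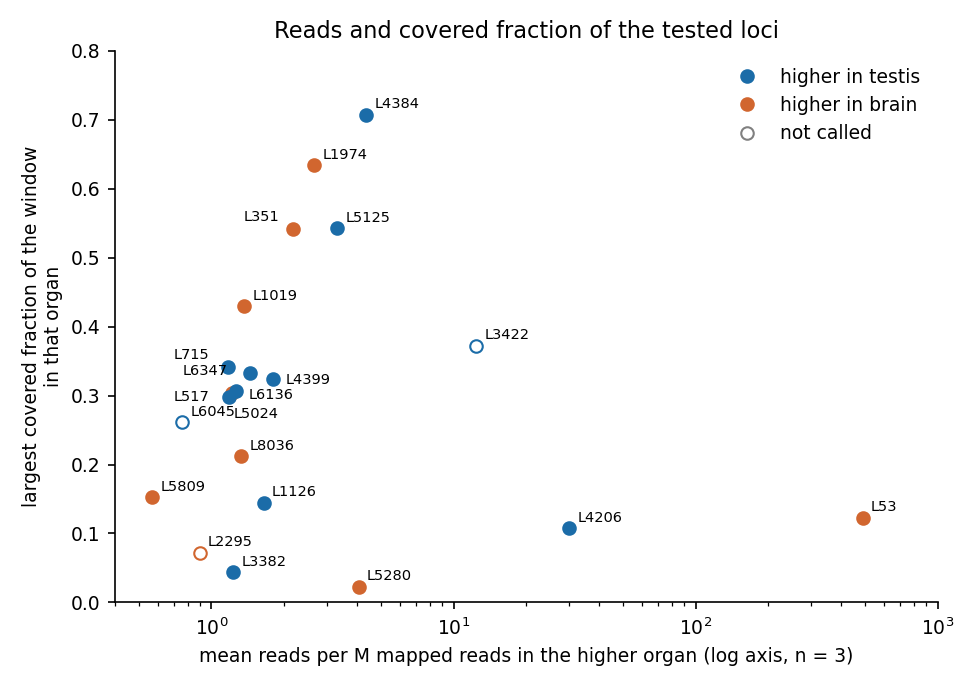
Mean level in reads per M mapped reads (RPM, log axis, n = 3) against the largest covered fraction of the counting window, for the 21 tested loci in the organ with the higher mean. Colour marks that organ, and open circles are loci that were not called. L53, L4206 and L5280 combine many reads with covered fractions under 0.2, whereas L4384, L1974, L5125 and L351 lie above 0.5.

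The 10 loci with most reads in a library held 84.9%, 84.3% and 81.7% of the L1 reads in the testes and 92.5%, 95.5% and 89.9% in the brains. The difference of −9.00 percentage points had p = 0.1 in the exact permutation test, and testis was lower in all 3 rats. It too was set by L53: of the reads outside the first locus, the next 9 loci held 47.1% ± 2.14 in testis and 39.6% ± 5.13 in brain (SD, n = 3), a difference of 7.42 points in the other direction (exact permutation p = 0.1, chosen after the data were seen).

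By inspecting alignments, the study had named 9 loci as transcribed from their own promoter in testis and 5 in brain. These lists were chosen on the same libraries, so their direction is no independent evidence. Of the 9 testis loci, 3 passed the filter of the test, L1126 and L6347 were called higher in testis, and L2295 was not called. Of the 5 brain loci, L517 passed the filter and was called higher in brain. Over all 21 tested loci the counts were 10 and 8. The other called loci, among them L53, L4206, L5125, L4384, L1974 and L351, were on neither of these lists. The study treats L1 reads that its inspection does not pass as background from passive transcription. Whether the reads on these loci start at an L1 promoter was not tested here.

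The other curated loci had few reads. Of the testis list, L134 at chr9:51096886-51098781 on the minus strand had 16, 6 and 22 reads in the testes over a window of 1896 bp and none in the other 9 libraries, at least 5.53-fold above brain. L6523 at chr16:26046485-26052484 on the plus strand, with a name at 2 places, had 12, 4 and 2 reads in the testes and no brain read. L4463 had 0, 8 and 4 reads in the testes and 2, 0 and 0 in the brains, a ratio of 6.89 (95% interval 1.53 to 63.4, counting error only, mates counted singly). L1234 and L6681 each had 0, 2 and 6 reads in the testes and L4544 had 4, 2 and 0, at or near the floor in every library. The names L6681 and L4544 stand for 2 places each, and the values are those at chr4:175821041-175827040 and chr3:36393387-36399386, both on the minus strand.

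Of the brain list, L3750 at chr6:125371426-125377209 on the plus strand had 16, 2 and 9 reads in the brains and 2 in each testis. L1020 at chr2:18889200-18895199 on the minus strand, with a name at 2 places, had 10, 4 and 6 reads in the brains and 0, 0 and 9 in the testes, so the organs overlapped. L1601 had 11, 0 and 6 reads against 0, 0 and 2, a ratio of 7.40 (95% interval 1.76 to 66.0, counting error only, mates counted singly and thus too narrow as well). L6879 at chr16:25715233-25721232 on the minus strand, with a name at 2 places, had 4 reads in a single brain.

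Total L1 mRNA was the sum of FPKM over the loci of an organ's own list that the study named in that library, at 6 kb per locus. It was 0.999, 0.841 and 0.738 FPKM in the testes and 0.474, 0.333 and 0.301 FPKM in the brains of rats 967, 968 and 974. Each testis lay above each brain, with means of 0.859 ± 0.131 and 0.369 ± 0.0921 FPKM (SD, n = 3) and a difference of 1.24 on the log2 scale (exact permutation p = 0.1). These reads made up 4.20% ± 0.807 of the L1 reads outside L53 in testis and 3.53% ± 1.11 in brain.

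**Figure D4:**
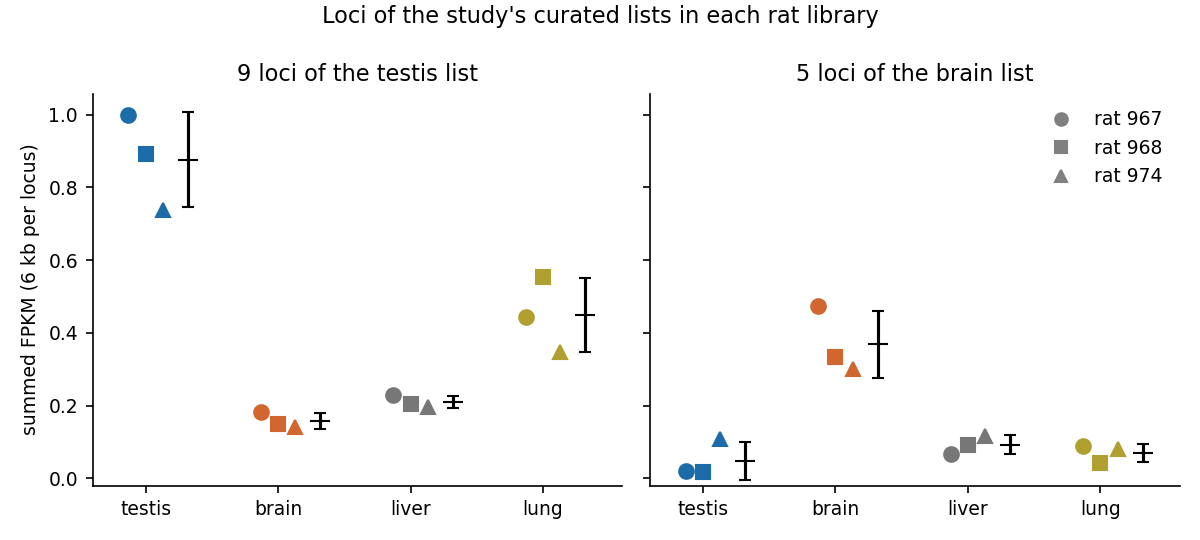
Summed FPKM (6 kb per locus) of the 9 loci on the study's testis list (left) and the 5 loci on its brain list (right) in every library of the 4 rat organs. Symbols mark the rat, and the bars show the mean and SD of 3 libraries. The testis list is at 0.738 to 0.999 FPKM in testis and 0.142 to 0.182 in brain, and in lung it reaches 0.349 to 0.553, where L2295 holds 48 to 52 reads per library.

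Counted in every organ, the testis list summed to 0.877 ± 0.131 FPKM in testis, 0.158 ± 0.0212 in brain, 0.209 ± 0.0165 in liver and 0.449 ± 0.102 in lung (SD, n = 3 each). The levels per mapped read in liver and lung are less certain, since the recovered number of mapped reads was 24.8445 M both in liver of rat 967 and in lung of rat 974, and that in lung of rat 967 equalled the mean of the 3 testes, 18.7247 M. Its level outside testis came almost wholly from L2295, which had 16 to 24 reads in the brains, 22 to 34 in the livers and 48 to 52 in the lungs. The brain list summed to 0.369 ± 0.0921 FPKM in brain, 0.0483 ± 0.0516 in testis, 0.0925 ± 0.0254 in liver and 0.0704 ± 0.0252 in lung. L5024, which the study listed for lung, had more reads in each testis than in any lung.

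The loci were also described by chromosome and strand. All 21 tested loci were autosomal, as were 90.4% of the annotated loci. The 397 loci on chromosome X had 4.27, 4.16 and 4.53 RPM in the testes and 5.18, 2.19 and 6.54 RPM in the brains, so these overlapped, and 22.9% of them had a read in any testis against 20.7% in any brain. Over all 4563 loci these shares were 23.6% and 17.6%. Outside L53, the plus-strand loci had 89.5 ± 7.71 RPM in testis and 38.1 ± 7.31 in brain, with no overlap, while the minus-strand loci had 34.3 ± 4.80 and 27.4 ± 8.57 RPM, with overlap (SD, n = 3). L4206, which lies on the plus strand, gave 30.1 RPM of the plus-strand reads in testis. The 42 loci on chromosome Y had 4 to 13 reads in each testis and 2 to 10 in each brain. The 179 loci whose window overlaps another had 1.36 ± 0.143 RPM in testis and 1.00 ± 0.531 in brain, and none was tested.

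Seen over the other organs, 4 of the 10 loci called higher in testis (L5125, L1126, L6347 and L4399) had no read in any liver or lung, and of the 8 called higher in brain L351 had none. More than 10 reads in at least 1 liver or lung were found for L4384 and L715 among the testis loci and for L53 and L5280 among the brain loci. L53 was also the locus with most reads in these organs, with 14376 to 18888 reads in the livers and 21558 to 30986 in the lungs.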

How the data were processed

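Per the labels and the study's methods, the authors aligned read pairs to rn6 with Bowtie, kept unique alignments, removed duplicates, separated strands and used bedtools to deposit, for each locus, raw read counts and the covered fraction of its window. Because reads had to align uniquely, recent and near-identical L1 copies are undercounted. The read length and sequencing platform of each rat library are not given in the sources used here.

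The number of mapped reads was recovered by dividing the deposited counts by the FPKM tabulated for the same listed loci and by 6 kb, on which the listed loci of each library coincided within 0.01%. Of the 14 names on the testis and brain lists, 8 stand for more than 1 place, and for these the place was taken whose reads matched that number, so their agreement is partly set by the choice. The listed names with 1 place, 1 to 4 per library, all coincided without any choice. Loci with at least 10 reads in at least 3 of the 6 libraries were fitted with edgeR 4.0.16 (glmQLFit, glmQLFTest), mapped reads as library size, organ as the only term, and Benjamini-Hochberg adjusted p of at most 0.05 as the call. Library-level values were compared by two-sided exact permutation tests (smallest p 0.1) and sign-flip tests within rats (smallest p 0.25), so none could pass 0.05. On data simulated for this comparison (20 draws, 433 tests in all), 214 of 223 loci changed 4-fold were called and 5 unchanged ones. The draws took single reads as independent, with an assumed dispersion of 0.1 and means pooled over both organs. Since the real reads come mostly in pairs, these rates need not hold for the real counts. Intervals and floors cover counting error only. Coordinates are 1-based rn6 positions. Rat gene annotation and sequence were not used here.

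Named loci were those on the study's testis and brain lists, up to 10 called loci per direction whose organs did not overlap, and the 5 highest in each organ. Comparisons, lists and named loci were chosen with earlier results of these data known. The organs of one number come from the same rat. The deviations of testis and brain from their group means correlated over the 21 tested loci at −0.0942, 0.148 and −0.0602 in rats 967, 968 and 974. Alternatives were other library sizes, DESeq2 1.42.0, no filter, the rat as a block, all 12 rat libraries, other thresholds, thinning and leaving out libraries.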

Additional observations from a re-analysis of the deposited data

Results flagged for a closer look

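Some loci without a read in any testis or brain had at least 10 reads in all 3 libraries of an organ outside the comparison. L6968 at chr1:258822125-258828124 on the minus strand had 88, 93 and 197 reads in the livers of rats 967, 968 and 974, a mean of 5.48 reads per M mapped reads (RPM), over 0.551 to 0.860 of its window. L3574 at chrX:13751964-13757963 on the minus strand had 38, 16 and 48 reads in the lungs, a mean of 1.65 RPM. L1016 at chr2:38662794-38668793 on the plus strand had 14, 12 and 22 reads in the lungs, a mean of 0.795 RPM. The levels per mapped read in liver and lung rest on recovered numbers of mapped reads of which some coincide between libraries, so they are less certain than the reads. Groups of 3 were too small for the check on outlying libraries.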

How the results depend on the processing

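Testis minus brain in log2 RPM of all loci turned from −0.47 to 0.703 without the 10 loci with most reads and to 0.946 without L53, and the share of the leading loci turned from −9.00 to 7.42 points for the 9 loci after the first. The median covered fraction turned from −0.00733 to 0.0419 over loci with more than 50 reads, to 0.00917 over loci with more than 10 reads in all 6 libraries, and ranged from −0.0273 to 0.0113 with libraries or rats left out. Calls went from 18 of 21 tested loci to 33 of 1598 (22 higher in testis) without a filter. They fell to 4 (2 and 2) of 4 tested loci at a covered fraction of at least 0.5. With reads halved and rounded up, 9 (5 and 4) of 10 tested loci were called. The default of DESeq2 called 4 loci higher in brain. Leaving out libraries or rats gave 18 to 25 calls among 22 to 27 tested loci, since the filter then asked for fewer libraries.

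With the replicate block of the rat, 16 loci were called (10 higher in testis and 6 in brain), L1019 and L5809 were lost, and no other call changed. Within rats, the log2 RPM difference was −0.47 (exact sign-flip permutation p = 0.25).

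Among single loci, the log2 fold change of L6045, which was not called, turned from 0.0152 to −0.245 with the block and to −0.875 with the reads outside L53 as library size, and ranged from −1.25 to 0.916 with libraries left out. L3422 turned to −0.703 with that library size. With the default of DESeq2, L2295 turned to 0.0539 and L53 to 0.114. The causes were not tested. L1 reads at a covered fraction of at least 0.5 in that library gave no comparison, since the brain of rat 968 had no such locus. Counts under 3 reads, 1 pair in most loci, limit what can be said of the loci with few reads. The alternatives that leave out L53, halve the reads or take the next 9 loci were chosen after the data were seen.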
